A study of Ramazzottius varieornatus with 27 samples.

Results

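Genes that were low from 12 h to 21 h after gamma irradiation and back near the control level at 24 h were examined in whole *Ramazzottius varieornatus*, a tardigrade that survives drying and high doses of radiation. They were chosen from measured values among the 13369 genes with a single transcript row, of 13920 genes in all. A gene was taken when its control mean was at least 5, when the average of its levels at 12 h, 15 h, 18 h and 21 h lay at least 0.8 below the control and when its level at 24 h lay less than 0.4 below it. Levels are log2(group mean + 1) of the deposited abundance, a transcript share per length (TPM) scaled by a TMM factor per library. At least 10 of the 12 libraries from 12 h to 21 h also had to lie below the lowest control library. The rule gave 110 genes, called recovering genes here. The 1112 genes that met every other criterion but stayed at least 0.4 below the control at 24 h are called held genes and serve as the comparison. All these values were used for the choice, so the levels in the controls and from 12 h to 24 h are a description without a test.

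The animals had received 500 Gy of 60Co gamma ray within 15 min and were kept at 22 °C until 4, 6, 9, 12, 15, 18, 21 or 24 h, while the control animals had not been irradiated and have no sampling time in the labels. Each of the 9 groups has 3 libraries, each from the RNA of 30 pooled whole animals, which makes 27 libraries. The methods call the 3 libraries technical replicates, and the p-values below speak only to variation among such libraries. Library preparation was not uniform. The fewest PCR cycles were used at 4 h and for replicates 1 and 2 of 6 h, more from replicate 3 of 6 h up to 21 h, and the most at 24 h, while for the controls the methods name none. The return at 24 h and the change of cycle number between 21 h and 24 h cannot be told apart in this design.

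Ionizing radiation breaks DNA and forms reactive oxygen species. Cells commonly answer by raising repair and antioxidant transcripts and lowering others, and the level of a transcript follows the balance of its synthesis and its decay. *R. varieornatus* is known for proteins that protect DNA and cell contents, such as Dsup. The values are shares of each library, so a lower value can come from less of that RNA or from more of others. In whole animals, fewer cells of a type and less RNA per cell cannot be told apart. None of the transcript IDs (0 matches) was found in the gene table of the *R. varieornatus* assembly, so the members have no gene names or roles here and are described by their values.

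TPM keeps no read totals, but the lowest values of rarely seen transcripts come in steps of 1 read, and these steps gave the relative depth of 26 libraries. In the 24 h libraries 1 read was worth 6.28 to 11 times as much as in control replicate 1, against 0.89 to 4.59 times from 12 h to 21 h and 1 to 2.89 times in the controls. By this measure the 24 h libraries were the shallowest of the 26. For 9 h replicate 1 too few such values were found (4). In that library 9575 transcripts lay above 0, the fewest of the 27, and 27 of the 110 recovering genes (24.5%) were listed at 0, against at most 8 in any other library. Also listed at 0 in it were 208 of the 1112 held genes (18.7%) and 660 of the 8838 genes with a control mean of at least 5 (7.47%). The authors saw apparent adapter dimer in 9 h replicate 1 and size-selected the pooled libraries. The paper lists more reads mapped to coding sequences for it than for any 24 h library. Its share of reads mapped to the genome was the lowest of all libraries. The part of this preparation fault in the values listed at 0 was not tested.

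The recovering genes spanned a wide range of abundance. Their control means ran from 5.16 to 1056 TMM-normalized TPM with a median of 31.0, against a median of 62.6 for the held genes and 45.9 for all 8838 genes with a control mean of at least 5. In 16 of them the control mean was under 10, in 38 between 10 and 30, in 37 between 30 and 100 and in 19 above 100. Recovering genes made up 9.00% of the 1222 genes that met the criteria of the fall. That share was 14.2% under 10, 13.0% between 10 and 30, 10.2% between 30 and 100 and 4.17% above 100. The median SD of log2(value + 1) among the 3 libraries of 24 h changed with abundance as well, at 1.14, 0.668, 0.404 and 0.304 for the recovering genes of these classes in the same order. The part of this spread in the choice of genes was not tested.

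From 12 h to 21 h the recovering genes stood at 48.8% of the control level at the median, on the scale of value + 1. The median difference from the control was -1.14 at 12 h and -1.04 at 18 h, and it was -1.0 both at 15 h and at 21 h. Averaged over these times, the difference of single genes ran from -2.18 to -0.80 with a median of -1.03. In 46 genes all 12 libraries lay below the lowest control, in 39 genes 11 did and in 25 genes 10. The lowest of these 4 means was seen at any of the times, in 29 genes for 12 h, 19 for 15 h, 33 for 18 h and 29 for 21 h.

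At 24 h the median difference from the control was -0.20, which is 86.8% of the control level, and single genes ran from -0.40 to 0.35. The mean of 24 h lay above the control mean in 16 of the 110 genes. Among all 8838 genes with a control mean of at least 5 it did in 4164. The rule itself asked for a level near the control, and the mean of most recovering genes stayed below it. Relative to 12 h to 21 h the level of 24 h was higher by 0.83 at the median (1.78-fold), with a range of 0.43 to 2.02. The return was uneven between libraries. Library medians at 24 h were -0.21, -0.39 and -0.09 in replicates 1, 2 and 3, and single libraries lay below the lowest control in 48, 65 and 35 genes. In 95 genes at least 1 library of 24 h lay below the lowest control, and in 7 of these all 3 did. In 36 genes the highest 24 h library was over 3 times the lowest, and 7 genes were listed at 0 in at least 1 library of 24 h. How many of all genes met these conditions was not counted, so the counts are not read as particular to the recovering genes. Per 24 h library, 1.82%, 2.73% and 2.73% of the recovering genes were listed at 0. All genes with a control mean of at least 5 had 0.973%, 2.76% and 2.41%, and the held genes 3.15%, 9.35% and 8.09%.

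In 19 of the recovering genes (17.3%) all 3 libraries of 24 h lay above all 12 libraries of 12 h to 21 h. Among all genes with a control mean of at least 5 this held for 1.01%, and among the held genes for 24 of 1112 (2.16%). All 3 libraries of 24 h lay above all 3 of 21 h in 46 recovering genes (41.8%), against 5.59% of all these genes and 120 held genes (10.8%). As the rule chose genes for a high 24 h level, these shares describe the choice and are no support for it.

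**Figure D1:**
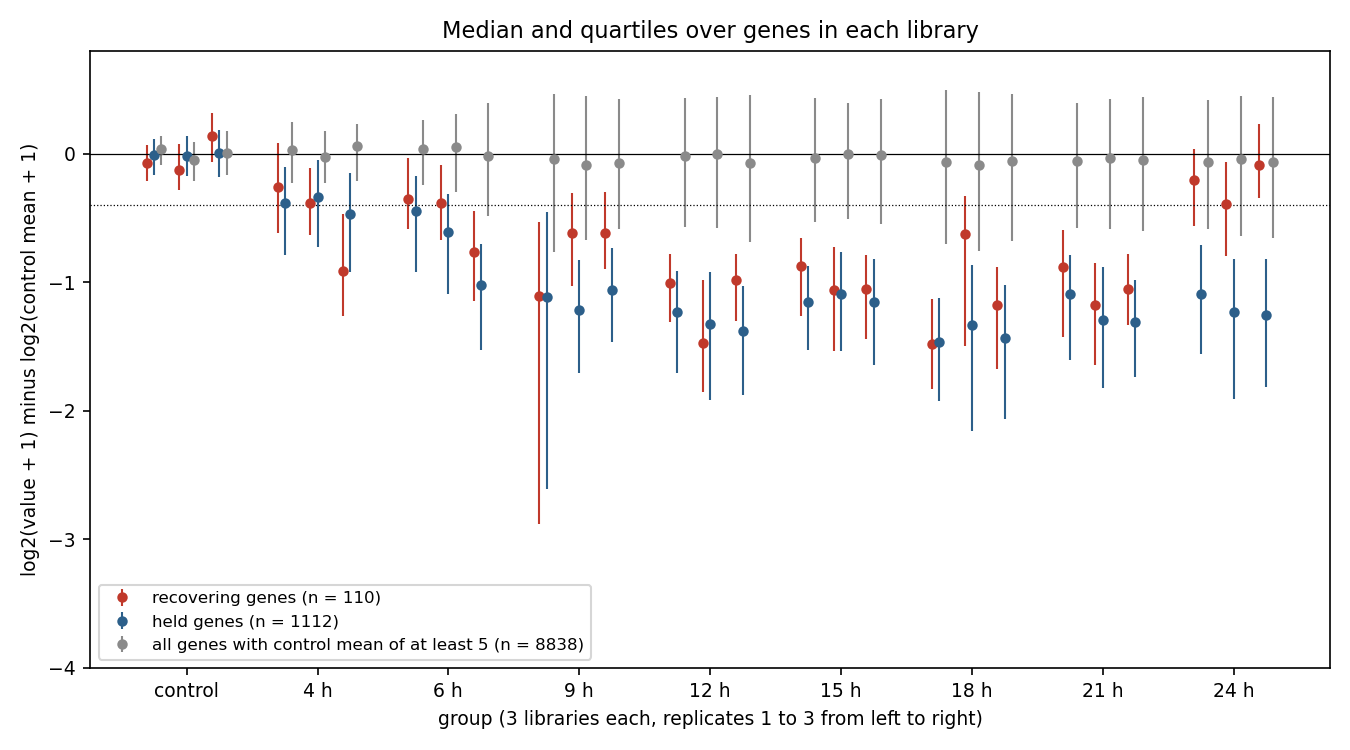
Median (points) and quartiles (bars) over genes of log2(value + 1) minus log2(control mean + 1) in each of the 27 libraries, for the 110 recovering genes, the 1112 held genes and all 8838 genes with a control mean of at least 5. The dotted line marks -0.4. The recovering genes lay at -0.21, -0.39 and -0.09 in the 24 h libraries, where the held genes lay at -1.09, -1.23 and -1.25. Several single libraries stood apart from the others of their time in the recovering genes. Among these were 4 h replicate 3, 6 h replicate 3, 9 h replicate 1, 12 h replicate 2 and 18 h replicate 2.

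The limit of -0.4 did not fall into a gap. Over the 1222 genes that met the criteria of the fall, the difference between 24 h and the control had a median of -1.06, with quartiles at -1.47 and -0.74 and the highest value at 0.35. Within 0.1 of the limit lay 37 genes on the recovering side and 44 on the held side. The recovering genes were the upper end of 1 continuous distribution. The gene just inside the limit had -0.3993 and the one just outside -0.4003. For the average of 12 h to 21 h the values next to the limit were -0.8011 inside and -0.7988 outside, and for the control mean 5.16 inside and 4.87 outside. A further 23 genes met all other criteria with 9 of the 12 libraries below the lowest control.

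**Figure D2:**
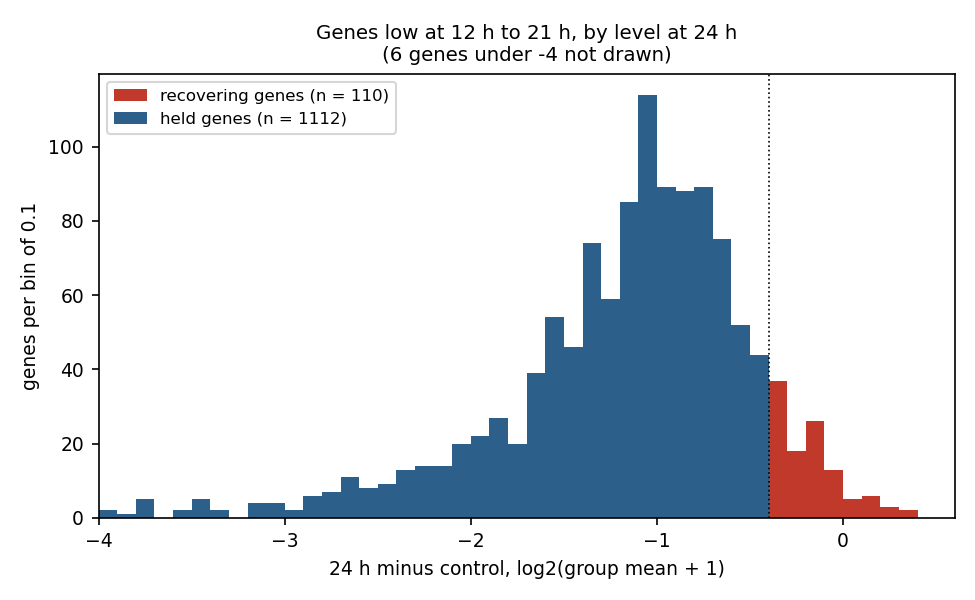
Difference between 24 h and the control in log2(group mean + 1) for the 1222 genes that met the criteria of the fall, counted in bins of 0.1, with the 110 recovering genes right of the dotted limit at -0.4 and the 1112 held genes left of it. The 6 genes under -4 are not drawn, and the counts run across the limit without a gap.

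The genes described singly were taken by a fixed rule among the 14 of these 19 genes in which all 12 libraries of 12 h to 21 h also lay below the lowest control. The first 2 had the lowest average from 12 h to 21 h relative to the control on the log2 scale. In g13439.t1 the controls had 7.58, 13.2 and 10.3 TMM-normalized TPM, the 4 h libraries 6.42, 7.93 and 1.84, the 6 h libraries 6.55, 4.69 and 2.30 and the 9 h libraries 0, 4.72 and 4.27. The 12 h libraries had 0.944, 1.49 and 0.908, those of 15 h 1.23, 0.693 and 2.70, those of 18 h 2.54, 0 and 0, those of 21 h 3.14, 2.42 and 3.46 and those of 24 h 8.77, 3.81 and 15.0. The 12 late libraries thus lay between 0 and 3.46, all below the controls, while the 24 h libraries spread widely with 1 of them below the lowest control. The mean was 9.21 ± 5.63 at 24 h and 10.4 ± 2.82 in the controls (SD, n = 3 each), and the average from 12 h to 21 h lay 2.18 below the control on the log2 scale.

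The other gene of this kind, g5579.t1, was of low abundance. It had 5.80, 4.96 and 8.64 in the controls, 4.80, 3.41 and 1.36 at 4 h, 4.60, 3.68 and 1.85 at 6 h and 0, 0.985 and 5.64 at 9 h. It had 2.38, 1.60 and 2.57 at 12 h, 1.55, 1.74 and 0 at 15 h, 1.17, 0.392 and 3.00 at 18 h, 1.12, 0.757 and 2.28 at 21 h and 6.12, 14.3 and 3.14 at 24 h. The 24 h mean of 7.86 ± 5.80, against 6.47 ± 1.93 in the controls (SD, n = 3 each), rested on replicate 2, and replicate 3 lay only just above the highest late library (3.00). In both genes 4 h replicate 3 and 6 h replicate 3 were the lowest libraries of their times, and 9 h replicate 1 was listed at 0.

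The other pair had the largest difference between 24 h and 12 h to 21 h among the genes left. The gene g2205.t1 was not low early. It had 39.6, 28.1 and 24.0 in the controls, 72.7, 32.2 and 25.8 at 4 h, 46.9, 38.8 and 41.0 at 6 h and 6.56, 38.7 and 19.9 at 9 h. It had 11.3, 11.3 and 17.9 at 12 h, 12.1, 7.19 and 5.13 at 15 h, 4.87, 13.5 and 6.03 at 18 h, 10.8, 8.30 and 15.9 at 21 h and 25.4, 24.8 and 36.4 at 24 h. All 3 libraries of 24 h were above the lowest control, and their mean of 28.9 ± 6.55 lay beside 30.6 ± 8.11 in the controls (SD, n = 3 each). Its level at 24 h was 1.42 higher than the average from 12 h to 21 h on the log2 scale.

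In g3998.t1 the controls had 17.5, 14.9 and 26.2, the 4 h libraries 21.9, 28.7 and 14.6, the 6 h libraries 13.2, 14.5 and 7.08 and the 9 h libraries 41.7, 11.5 and 15.3. It had 13.5, 9.00 and 12.2 at 12 h, 12.0, 6.20 and 10.1 at 15 h, 1.41, 8.96 and 8.74 at 18 h, 12.0, 5.57 and 8.16 at 21 h and 24.6, 17.0 and 21.7 at 24 h. Here the 24 h libraries were alike, at 21.1 ± 3.80 against 19.6 ± 5.93 in the controls (SD, n = 3 each), and all 3 lay above the lowest control. The single high value of 41.7 at 9 h came from replicate 1, the library with the fewest transcripts above 0.

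**Figure D3:**
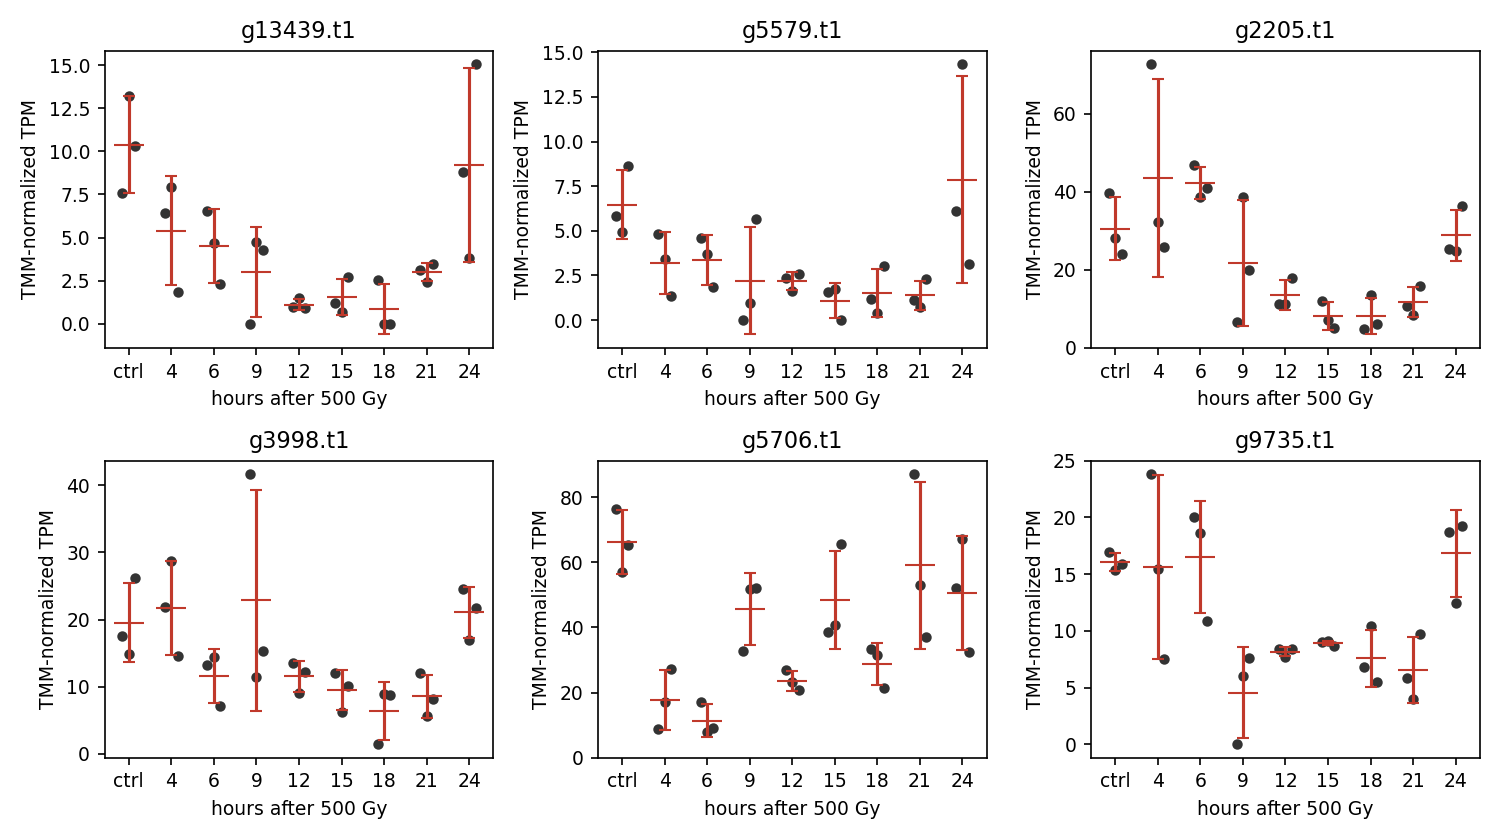
TMM-normalized TPM in each library (black points, replicates 1 to 3 from left to right) with the group mean and SD (red) in the controls and at 8 times after irradiation, for 6 recovering genes, each on its own linear scale. In g13439.t1 and g5579.t1 the 24 h libraries spread from 3.81 to 15.0 and from 3.14 to 14.3, while in g2205.t1 and g3998.t1 they were alike. The gene g5706.t1 was lowest at 6 h, and g9735.t1 was at 4.56 on average at 9 h.

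Libraries of 4 h, 6 h and 9 h played no part in the choice of genes, so comparisons among these times can be tested. They ask how the fall set in, with a limit. All 4 h libraries had fewer PCR cycles than the 9 h libraries, so time and cycle number cannot be told apart at 9 h against 4 h. At 6 h, replicates 1 and 2 had the cycle number of 4 h and replicate 3 that of 9 h. The comparisons with 6 h thus share this limit in part. Transcripts that reached 1 TMM-normalized TPM in 3 or more libraries were fitted together with limma. These were 12820, with all 110 recovering genes among them. A call needed an adjusted p (Benjamini-Hochberg) under 0.05 together with group means more than 2-fold apart. The spread in this fit came from all 27 libraries, including those the rule used, so the p-values are not fully independent of the choice. With only the 2 groups compared in the fit, no recovering gene was called in any of these comparisons. Few recovering genes passed in the fit of all groups. At 9 h against 4 h, 5 of the 110 genes (4.55%) were called lower and 1 (0.909%) higher, where 5.01% of all transcripts were called lower and 2.18% higher. The share was thus near that of all transcripts, while 234 of the 1112 held genes (21.0%) were called lower. At 9 h against 6 h, 1 recovering gene was called lower (0.975% of all transcripts) and 1 higher (0.741%). At 6 h against 4 h none was called lower (0.203% of all transcripts) or higher (0%) with limma. There 3 recovering genes (2.73%) had an unadjusted limma p under 0.05, against 8.80% of all transcripts. Such a p was seen in 20.0% of the recovering genes at 9 h against 4 h, where all transcripts had 32.8%. At 9 h against 6 h the shares were 16.4% and 21.6%. Of the 5 genes called lower at 9 h against 4 h, none was called lower without 9 h replicate 1, the library with apparent adapter dimer. Of the 6 calls in all, 1 was left without 9 h replicate 1, without 4 h replicate 1 or without 4 h replicate 2, and none with only these 2 groups in the fit, while 12 genes were called without 9 h replicate 2. At 9 h against 6 h, 1 gene was called without 6 h replicate 1, none without 6 h replicate 2 and 5 without 9 h replicate 3.

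As a list, the recovering genes lay lower at 9 h than at 4 h. The median change was -0.38 (quartiles -0.95 and 0.00), beside -0.79 for the held genes and -0.14 for all transcripts tested. Without 9 h replicate 1 it was -0.13 and without 4 h replicate 3 it was -0.64. Changes were negative in 82 of the 110 recovering genes (74.5%), in 89.0% of the held genes and in 58.2% of all transcripts. Between 6 h and 4 h the median change was 0.04, beside -0.31 for the held genes and 0.02 for all transcripts. Its sign turned without 4 h replicate 3, at -0.18, and also without 6 h replicate 1 (-0.05) or 6 h replicate 2 (-0.03). At 9 h against 6 h it was -0.43, beside -0.48 and -0.11, and -0.20 without 9 h replicate 1. Here 85 of the 110 changes were negative (77.3%), against 78.1% for the held genes and 58.7% for all transcripts. All 3 libraries of 9 h lay below all 3 of 4 h in 15 recovering genes (13.6%), against 21.2% of all genes with a control mean of at least 5 and 45.5% of the held genes. They lay above all 3 of 4 h in 5 recovering genes (4.55%), against 20.7% of all these genes and 0.27% of the held genes.

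**Figure D4:**
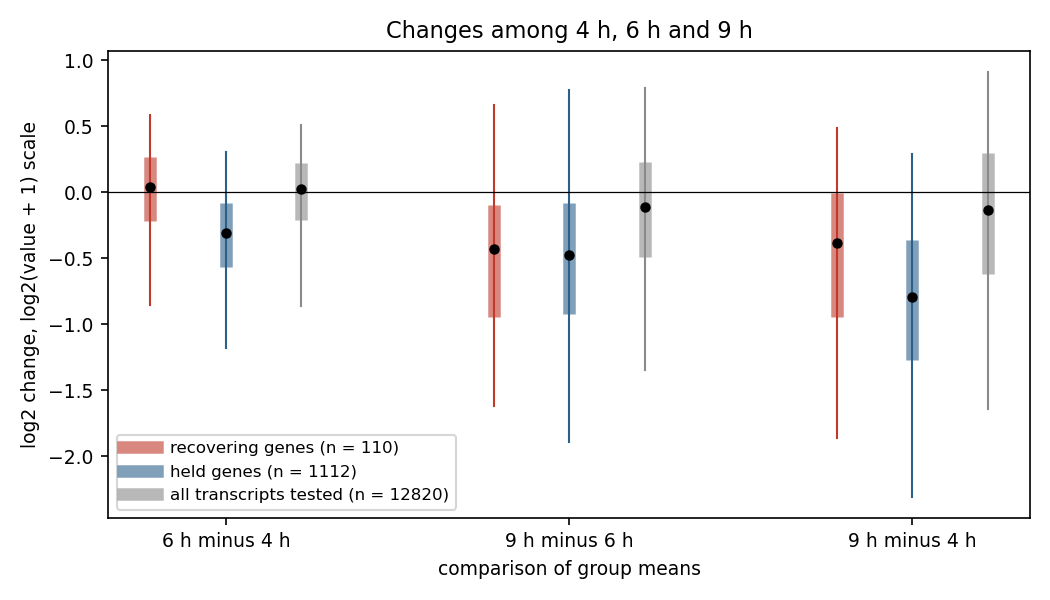
Log2 change on the log2(value + 1) scale for 6 h minus 4 h, 9 h minus 6 h and 9 h minus 4 h, over the 110 recovering genes, the 1112 held genes and all 12820 transcripts tested. Points are medians, thick bars quartiles and thin lines the 5th to 95th percentile. The median of the recovering genes was 0.04, -0.43 and -0.38 in this order.

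The members called in both comparisons with 9 h were 1 lower and 1 higher gene, named after their values were seen. The share of all transcripts called in both was not counted. In each comparison taken alone, the share of members called was near or below that of all transcripts. Both are described as single genes, and nothing about the list is read from them. In g9735.t1 the values were 23.8, 15.5 and 7.56 at 4 h, 20.0, 18.7 and 10.9 at 6 h and 0, 6.05 and 7.62 at 9 h. The lowest library of 4 h (replicate 3, 7.56) lay within the range of 9 h, while those of 6 h did not overlap with it. It fell to 4.56 ± 4.02 at 9 h, against 15.6 ± 8.13 at 4 h (SD, n = 3 each), with a log2 change of -1.95 (standard error 0.55, limma adjusted p = 0.0167). Against 6 h, at 16.5 ± 4.95, the log2 change was -2.11 (standard error 0.55, limma adjusted p = 0.0343). Later it had 4.03 to 10.4 from 12 h to 21 h, and 18.7, 12.5 and 19.3 at 24 h beside 16.9, 15.4 and 15.9 in the controls. Over the alternatives it was called in 8 of 12 for 4 h (adjusted p 0.00542 to 0.240) and in 7 of 12 for 6 h (0.0133 to 0.316). It was not called without 9 h replicate 1 in either comparison, nor without replicate 1 or replicate 2 of 4 h or 6 h. The call was also lost in both comparisons with only the 2 groups in the fit, and against 6 h with a pseudocount of 0.1.

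The gene g5706.t1 ran the other way early. It had 8.90, 17.2 and 27.2 at 4 h, 17.1, 7.94 and 9.19 at 6 h and 32.9, 51.9 and 52.0 at 9 h, so the 9 h libraries lay above all of the earlier ones. It rose to 45.6 ± 11 at 9 h, against 17.7 ± 9.15 at 4 h (SD, n = 3 each), with a log2 change of 1.41 (standard error 0.37, limma adjusted p = 0.0102). Against 6 h (11.4 ± 4.97) the log2 change was 1.95 (standard error 0.37, limma adjusted p = 0.00827). From there it did not hold one level, with 23.6 ± 3.07 for 12 h and 28.9 ± 6.47 for 18 h, but 48.4 ± 15.0 for 15 h and 59.1 ± 25.6 for 21 h (SD, n = 3 each). At 24 h it had 52.2, 67.3 and 32.4, beside 76.4, 56.9 and 65.4 in the controls. It was called in 10 of 12 alternatives in each comparison (adjusted p 0.00442 to 0.0949 against 4 h and 0.00751 to 0.144 against 6 h). The call was lost without 4 h replicate 1 against 4 h, without 6 h replicate 2 against 6 h and in both comparisons with only the 2 groups in the fit. Its values alternate between times, and the single fall and return that the rule asks for does not describe them.

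Relative to the controls, which the rule used, the early times are a description. For 4 h the median difference was -0.47, with the mean above the control mean in 18 of the 110 genes. For 6 h it was -0.46 with 14 such genes, and for 9 h -0.79 with 7. The held genes had -0.38, -0.65 and -1.05 in the same order, with 159, 46 and 31 of 1112 above the control mean. All genes with a control mean of at least 5 had 0.03, 0.03 and -0.06, with 4788, 4650 and 4153 of 8838 above it. With limma 1, 3 and 16 genes were called lower for 4 h, 6 h and 9 h, where 0.265%, 2.22% and 7.35% of all transcripts were. For 12 h the count was 37 beside 6.46% of all transcripts, for 15 h 26 beside 4.34%, for 18 h 43 beside 8.95% and for 21 h 28 beside 5.76%. None was called higher from 4 h to 21 h, where the shares of all transcripts were 0.25%, 0.655%, 5.3%, 3.84%, 2.63%, 5.3% and 4.06% in order of time. At 24 h none was called lower (7.3% of all transcripts) or higher (4.64%), and none had an unadjusted p under 0.05. At 24 h against 21 h no transcript was called with limma (0% in either direction), with an unadjusted p under 0.05 in 40 recovering genes and in 9.39% of all transcripts. Nothing is read from these counts, since the rule chose genes by the same libraries.

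Libraries of the same time differed in the level of the recovering genes as a whole. At 4 h their median lay at -0.26 and -0.38 in replicates 1 and 2 and at -0.91 in replicate 3, a wider gap than that between the medians of 4 h and 9 h. Replicate 3 was the lowest of the 3 libraries in 83 of the 110 genes (75.5%), against 30.7% of all genes with a control mean of at least 5 and 43.0% of the held genes. It lay 0.59 below the other libraries of 4 h at the median, where the held genes lay 0.07 below. The 4 h libraries were not used for the choice and had the same number of PCR cycles. In that library 1 read was worth 1.11 times as much as in control replicate 1, against 0.75 and 0.72 times in replicates 1 and 2, and the part of depth in this gap was not tested.

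At 6 h replicate 3, which had more PCR cycles, lay at -0.77 and replicates 1 and 2 at -0.36 and -0.38. Here the gap was like that of the held genes (0.46 and 0.49 below the other libraries). Among the late libraries, which the rule used, 18 h replicate 2 lay at -0.63 and replicates 1 and 3 at -1.48 and -1.18. In the held genes these 3 libraries were alike, at -1.33 in replicate 2, -1.47 in replicate 1 and -1.43 in replicate 3. In 18 h replicate 2, 10570 transcripts lay above 0, fewer than in any library but 9 h replicate 1. It was the highest of the 3 libraries in 55 of the 83 recovering genes that were lowest in 4 h replicate 3 (66.3%) and in 11 of the other 27 (40.7%), against 53.0% and 24.2% over all genes with a control mean of at least 5.

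The spread between replicates was in most groups listed here wider in the recovering genes than in the held genes. The median SD of log2(value + 1) in the 4 h libraries was 0.452, against 0.277 in the held genes and 0.169 in all genes with a control mean of at least 5. For 9 h it was 0.671, against 0.548 and 0.329. The 6 h libraries were an exception, with 0.334 against 0.357 and 0.189. At 24 h it was 0.501, against 0.448 and 0.293. In the controls it was 0.310, against 0.238 and 0.218. The sets were not matched for abundance, with median control means of 31.0, 62.6 and 45.9 in the same order. The part of abundance in the wider spread was not tested.

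To see the 24 h level in libraries that had not chosen the genes, the rule was applied without 1 replicate number in the controls and at 24 h, and the left-out libraries were read. Without replicate 1 it chose 154 genes (78 of them among the 110), and the 24 h library left out lay 0.35 below the left-out control at the median, where the libraries used gave -0.19. Without replicate 2 it chose 163 genes (80 shared) with -0.54 in the left-out libraries and -0.19 in those used. Without replicate 3 it chose 136 genes (52 shared) with -0.72 and -0.24. In the left-out libraries 51.9%, 42.9% and 33.1% of the chosen genes were above -0.4. Genes chosen in the same way as held had -0.97, -1.14 and -1.09 in the left-out libraries, and 21.2%, 15.7% and 19.6% of them were above -0.4. In all 3 cases the genes chosen as recovering stood above those chosen as held in the left-out libraries. They also stood lower there than in the libraries that chose them. These lists differ from the 110 genes. The left-out libraries were technical replicates of those used, and the 24 h libraries shared 1 cycle number. The values therefore describe agreement between replicates and cannot tell a return in time from library preparation.

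**Figure D5:**
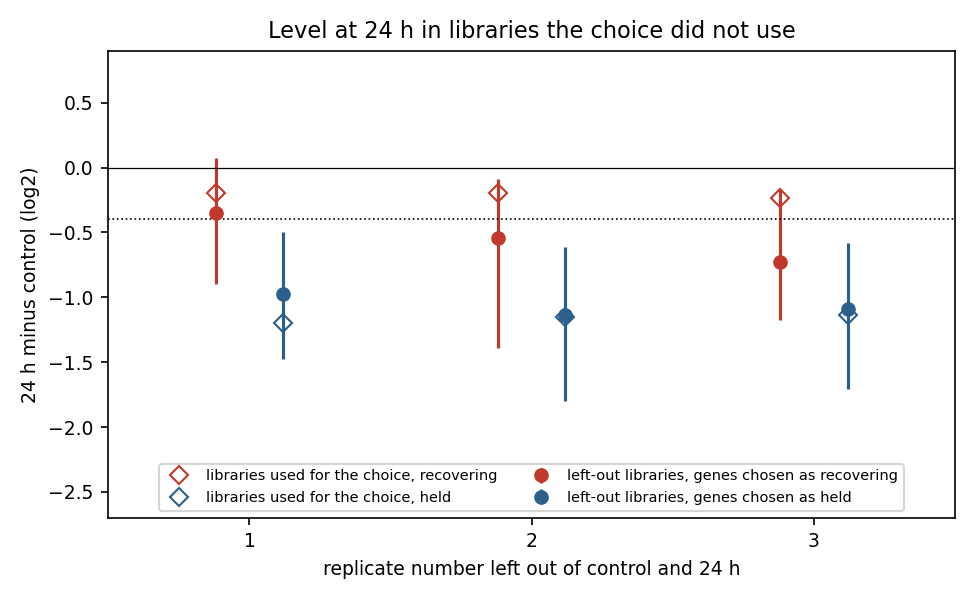
Difference between 24 h and control on the log2 scale when the genes were chosen without replicate 1, 2 or 3 of both groups. Filled points are medians in the left-out pair of libraries with quartiles over genes as bars, open diamonds the medians in the libraries used, in red for genes chosen as recovering and in blue for genes chosen as held. The left-out medians were -0.35, -0.54 and -0.72 for genes chosen as recovering and -0.97, -1.14 and -1.09 for genes chosen as held.

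Which genes were members depended on scaling and on single libraries. With the TMM factor undone, so that all libraries have equal sums, the rule gave 92 genes, of which 54 were among the 110. Without 24 h replicate 3 it gave 106, of which 66 were among the 110, and without control replicate 3 125 and 73. With the mean of the log values in place of the log of the mean, tried only once the data had been seen, it gave 95 and 82.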

How the data were processed

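Single-end reads of whole-animal RNA were assigned to coding sequences by the authors using RSEM on bowtie2 mappings, and the resulting TPM was scaled by TMM factors. The deposited table holds this signal (TMM-normalized TPM) for 14532 transcripts and no counts, and library sums ran from 891312 to 1140371. Every column was matched to a sample by its title.

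The scale was log2(value + 1). The fit used limma 3.58.1 under R 4.3.3 (means of 9 groups, trend, no replicate block), on 12820 transcripts, with p-values adjusted by Benjamini-Hochberg over all of them. The fit was tested on simulated data. The members, the held genes and the tests were chosen with earlier results of these data known. Genes named by rule had all 12 libraries of 12 h to 21 h below the lowest control and all 3 of 24 h above these 12 libraries. They were the 2 with the lowest late average relative to the control and the 2 others with the largest difference between 24 h and late. Relative depth came from values of 234 transcripts at whole multiples (within 5%, or 15% from 3 reads on) of 1 read. Alternatives were another pseudocount, no filter, no TMM factor, 2-group fits, a replicate block, no fold threshold, summed transcripts, the mean of log values and each library left out. An exact permutation test of 3 libraries against 3 cannot go below 0.10, so the limma fit, which pools the spread over groups and transcripts, was used. Plots came from matplotlib 3.10.9 (Python 3.11.15). Gene names, sequences and read counts per transcript were not used here.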

Additional observations from a re-analysis of the deposited data

How the results depend on the processing

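The number of recovering genes was 115 with a pseudocount of 0.1 and 120 with transcripts summed per gene, and 103 to 145 with a library left out. At 9 h against 4 h, 3 members were called with a pseudocount of 0.1, 3 with the TMM factor undone, 0 with only the 2 groups compared and 1 to 12 with a library left out. At 9 h against 6 h it was 1 with a pseudocount of 0.1, 0 with only the 2 groups and 0 to 5 with a library left out (5 without 9 h replicate 3), and at 6 h against 4 h 0 in every setting. The median changes ranged over left-out libraries from -0.64 to -0.13 for 9 h against 4 h, from -0.18 to 0.16 for 6 h against 4 h and from -0.57 to -0.20 for 9 h against 6 h. Against the controls, only the 2 groups in the fit gave 0 for 4 h, 2 for 6 h, 1 for 9 h, 54 for 12 h, 38 for 15 h, 21 for 18 h, 38 for 21 h and 0 for 24 h. The TMM factor undone gave 15 for 15 h, 19 for 18 h and 11 for 21 h, and no fold threshold 5 for 6 h. Left-out libraries gave 0 to 1 for 4 h, 1 to 2 for 6 h, 9 to 27 for 9 h, 16 to 37 for 12 h, 11 to 22 for 15 h, 23 to 54 for 18 h, 10 to 20 for 21 h, 0 to 1 for 24 h, and 0 to 1 for 24 h against 21 h. The lowest counts came without control replicate 3 for 9 h and 21 h, and without 12 h replicate 2, 15 h replicate 3 and 18 h replicate 1 for those times. The cause was not tested.

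With the replicate number as a block, 5 members were called at 9 h against 4 h (4 of the 6 called by the fit without it), 2 at 9 h against 6 h and 0 at 6 h against 4 h. The numbers did not pair the samples: in 0 of 36 pairs of groups did every same-numbered pair of libraries correlate above 0.1, and in 32 of 108 library pairs the same number gave the highest correlation. The 24 h libraries were the shallowest of the 26 with a value, and 1 read there weighed up to 11 times that of control replicate 1.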

Other observations

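The IDs of the recovering genes were set against each other by their g numbers, whose order is not explained in the sources used here. Another recovering gene lay within 10 numbers for 23 of the 110 (20.9%), and a recovering gene lay within 10 numbers of 1251 of the 8728 other genes with a control mean of at least 5 (14.3%). A directly adjacent number was seen for 2 of the 110 (1.82%) and 129 of the 8728 (1.48%). No test was made of these shares.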
